A study of Mus musculus with 22 samples.

Results

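Ependymal motile cilia genes were read here along the mouse brain. They were chosen by name as 6 genes of motile cilia, Foxj1, Rsph1, Tekt1, Ccdc153, Dynlrb2 and Tmem212, out of 20129 gene symbols with a RefSeq-identified probe on the array. Ttr, which encodes transthyretin, served as a reference for the choroid plexus. All 6 genes had a probe and all 6 passed the detection filter described below.

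Ependymal cells line the ventricles of the brain and carry tufts of motile cilia, whose beating moves the cerebrospinal fluid. In the mouse they arise from radial glia and acquire their cilia in the first weeks after birth. A motile cilium is built on a ring of doublet microtubules around a central pair, with dynein motors along the doublets and radial spokes pointing inward. The choroid plexus is a separate epithelium inside the ventricles that secretes the cerebrospinal fluid, and its cells also bear cilia.

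The fractions came from 3 whole brains, each of a male mouse of the inbred strain C57BL/6J, with no treatment named. By Transcriptome Tomography, a frozen brain is cut into serial thin slices that are pooled into slabs along a single axis, so each sample is a fraction of 1 brain. Mouse 1 gave the coronal series of 10 fractions, mouse 2 the horizontal series of 6 and mouse 3 the sagittal series of 6, with 1 Agilent single-colour array per fraction and no replicate of any position. Sample titles state 7 days of age, as does the study for its brain of 22 fractions, while the labels' age field states 3 days. The labels name 5 µm slices and 100 slices per slab, that is 500 µm, whereas the methods name thicker fractions, so positions are given as fraction numbers. Coronal fraction 10 pooled slabs 10 and 11, sagittal fraction 1 pooled slabs 1 and 2, and sagittal fraction 6 pooled slabs 7 to 9. The labels do not say which end of the brain carries fraction 1. Hoxb5, a gene of the hindbrain and spinal cord, had its highest coronal level, 4.44, in fraction 1.

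A level is given throughout as log2 of the processed spot intensity minus the 75th percentile of the same array, so 0 is that percentile and 1 unit is a doubling. Each array had 53.2% to 75.5% of its probes well above background. The spike-in response that Feature Extraction reports was out of its range on 7 arrays, coronal fractions 1 and 2, horizontal fractions 1 to 3 and sagittal fractions 1 and 3, and in range on the other 15. On those 7 arrays 36119 to 41965 probes were detected, against 29605 to 36342 on the rest. Coronal fractions 1 and 3 to 8 shared 1 slide, coronal fraction 2 lay on another, coronal fractions 9 and 10 shared a slide with all sagittal fractions, and all horizontal fractions were on the last.

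Promoter sequences are shown because the 6 genes had similar courses and because regulators of ciliary genes bind short motifs near the start site. RFX factors bind the X-box, a paired motif known from the promoters of ciliary genes, and forkhead factors such as FOXJ1 bind motifs with the core TAAACA. RefSeq windows of 300 bases (GRCm38.p6, from 250 bases before the start to 50 bases after it) were at hand for 4 of the 6 genes. Capitals mark matches to an X-box, to the single arm of an X-box, which was searched as GTTGCC, or to the forkhead core, each on both strands, so a match on the opposite strand appears as the reverse complement. An X-box match also holds a match to the arm.
Dynlrb2, chr8:116504765-116505064, plus strand: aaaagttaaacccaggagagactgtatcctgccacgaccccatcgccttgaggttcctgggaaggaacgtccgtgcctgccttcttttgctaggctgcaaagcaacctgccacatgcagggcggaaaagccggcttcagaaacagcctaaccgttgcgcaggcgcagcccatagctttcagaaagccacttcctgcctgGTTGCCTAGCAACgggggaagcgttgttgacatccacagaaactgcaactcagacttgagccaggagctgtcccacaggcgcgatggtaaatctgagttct
Ccdc153, chr9:44240427-44240726, plus strand: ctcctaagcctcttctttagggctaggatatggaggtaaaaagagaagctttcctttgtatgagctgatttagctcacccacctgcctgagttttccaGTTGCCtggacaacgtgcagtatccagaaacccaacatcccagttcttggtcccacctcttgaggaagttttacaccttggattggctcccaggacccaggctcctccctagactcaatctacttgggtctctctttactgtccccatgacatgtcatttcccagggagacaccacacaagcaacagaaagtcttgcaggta
Tekt1, chr11:72361833-72362132, minus strand: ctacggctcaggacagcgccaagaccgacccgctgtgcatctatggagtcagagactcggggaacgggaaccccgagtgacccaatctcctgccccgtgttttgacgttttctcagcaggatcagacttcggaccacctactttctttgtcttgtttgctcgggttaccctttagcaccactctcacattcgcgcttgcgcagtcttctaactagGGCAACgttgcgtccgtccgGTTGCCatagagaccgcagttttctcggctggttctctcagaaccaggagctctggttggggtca
Tmem212, chr3:27896319-27896618, minus strand: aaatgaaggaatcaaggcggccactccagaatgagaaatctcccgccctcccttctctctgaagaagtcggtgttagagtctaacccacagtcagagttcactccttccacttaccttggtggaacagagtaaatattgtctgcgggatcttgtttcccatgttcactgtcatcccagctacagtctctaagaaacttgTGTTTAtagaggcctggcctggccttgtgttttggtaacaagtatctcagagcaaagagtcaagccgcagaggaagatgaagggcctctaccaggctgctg

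The Dynlrb2 window held a whole X-box, GTTGCCTAGCAAC, which began 51 bases before the start site. Ccdc153 held GTTGCC alone, farther from the start, and Tekt1 held an inverted pair of the arms within the last 35 bases before its start. Tmem212 held none of these and a TAAACA match that began 51 bases before the start. A further Tekt1 window, chr11:72361247-72361546, and both windows of Dynlrb1 held no match. Among 32851 RefSeq promoters, 1.53% held an X-box, 12.5% held GTTGCC and 13.4% held TAAACA. Among 98 promoters of the listed motile cilia genes, the shares were 18.4%, 44.9% and 17.3%. These are matches of letters, and binding was not measured.

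**Figure D1:**
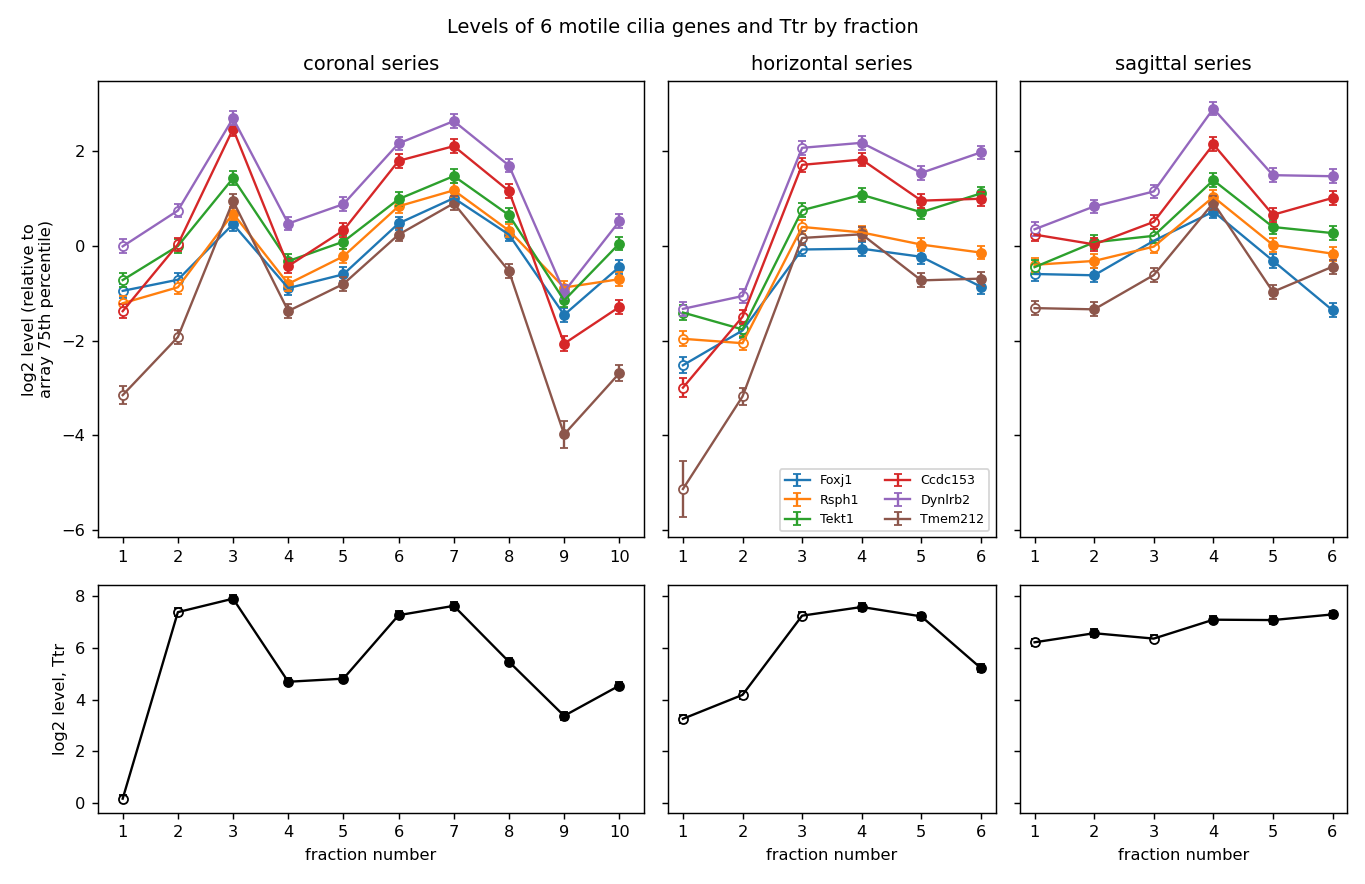
Log2 level relative to the 75th percentile of the array (vertical axis) by fraction number (horizontal axis) for the 6 motile cilia genes (top) and Ttr (bottom) in the coronal, horizontal and sagittal series. Points are single arrays, bars are the spot error of Feature Extraction, and open points are the 7 arrays whose spike-in response was out of range. All 6 genes were high in coronal fractions 3, 6 and 7, lowest in horizontal fractions 1 and 2, and highest in sagittal fraction 4.

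The shared pattern in the coronal brain had 2 high stretches, fraction 3 and fractions 6 to 8, parted by low values in fractions 4 and 5. Of the 6 genes, 3 peaked in fraction 3 and 3 in fraction 7, and 5 of the 6 were lowest in fraction 9. From fraction 3 to fraction 4 the level was lower in all 6 genes by 1.35 to 2.89, and from fraction 2 to fraction 3 it was higher in all 6 by 1.17 to 2.87. Over all probes tested the median change from fraction 2 to 3 was 0.13, with a 5th percentile of -4.71 and a 95th percentile of 1.08. Fractions 3 to 8 lay on 1 slide and had an in-range spike-in response, so slide did not differ between both high stretches and the trough. Fraction 2, whose spike-in response was out of range, and fraction 9 lay on other slides. The steps from fraction 2 to 3 and from fraction 8 to 9 therefore crossed slides. No batch of RNA preparation or labelling is given. In bulk tissue, fewer ciliated cells in a fraction and less RNA per cell cannot be told apart.

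Foxj1, the transcription factor that switches on the motile cilia programme, had levels of -0.95, -0.72, 0.45, -0.90, -0.60, 0.47, 1.00, 0.23, -1.46 and -0.45 in coronal fractions 1 to 10. Its horizontal levels were -2.52, -1.79, -0.08, -0.06, -0.24 and -0.87, and its sagittal levels were -0.60, -0.63, 0.10, 0.72, -0.32 and -1.36. Its maxima lay in fraction 7 of the coronal series and fraction 4 of both other series, and alone of the 6 genes it was lowest in sagittal fraction 6.

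Rsph1, a protein of the radial spoke head, read -1.21, -0.88, 0.68, -0.81, -0.23, 0.83, 1.16, 0.32, -0.88 and -0.71 along the coronal series. It read -1.96, -2.06, 0.39, 0.28, 0.02 and -0.15 along the horizontal series and -0.40, -0.32, -0.02, 1.02, 0.01 and -0.17 along the sagittal series. Sagittal fraction 4 stood well above the other sagittal fractions, which lay close together. A dimmer Rsph1 probe, with a median level of -2.79 against -0.16, correlated with it at r = 0.72 over the 22 fractions.

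Tekt1, a tektin filament protein of the doublet microtubules, read -0.73, -0.01, 1.42, -0.33, 0.08, 0.98, 1.46, 0.64, -1.15 and 0.04 in the coronal fractions. Its horizontal levels were -1.41, -1.77, 0.75, 1.07, 0.70 and 1.1, and its sagittal levels -0.45, 0.07, 0.21, 1.38, 0.39 and 0.26. The 2 coronal peaks were level, with fraction 3 lower than fraction 7 by less than the spot error. Its other probe followed the same course (r = 0.98).

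Ccdc153, a coiled-coil protein of motile cilia, had one of the wider courses, with coronal levels of -1.38, 0.03, 2.46, -0.43, 0.32, 1.79, 2.10, 1.15, -2.07 and -1.29. Its horizontal levels were -2.99, -1.50, 1.70, 1.81, 0.95 and 0.99, and its sagittal levels were 0.23, 0.03, 0.50, 2.13, 0.65 and 1.00. Fraction 3 exceeded fraction 4 by 7.40-fold in intensity relative to the array's percentile.

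Dynlrb2, a light chain of the roadblock type found in ciliary dynein, read -0.02, 0.74, 2.68, 0.46, 0.87, 2.15, 2.62, 1.69, -0.97 and 0.51 in the coronal fractions. It read -1.33, -1.06, 2.06, 2.17, 1.53 and 1.96 in the horizontal fractions and 0.34, 0.83, 1.14, 2.89, 1.48 and 1.46 in the sagittal ones. Its paralogue Dynlrb1, a light chain of cytoplasmic dynein, held between 6.15 and 7.26 on all 22 arrays and correlated with the mean profile of the 6 genes at r = 0.06.

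Tmem212, a transmembrane protein known as a marker of ependymal cells, had coronal levels of -3.15, -1.93, 0.94, -1.38, -0.81, 0.23, 0.89, -0.54, -3.98 and -2.69. Its horizontal levels were -5.13, -3.18, 0.16, 0.24, -0.73 and -0.70, and its sagittal levels were -1.32, -1.34, -0.62, 0.90, -0.97 and -0.44. The reading in horizontal fraction 1 was not well above background, with a spot error of 0.58, and gives no exact level there. The other 21 readings were well above background.

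Some neighbours in the order of levels could not be separated even by the error of a single spot, which was 0.14 to 0.20 log2 units except in that Tmem212 reading and in Tmem212 in coronal fraction 9 (0.28). Between 1 and 5 of the 9 neighbouring pairs in a gene's coronal order differed by less than their combined spot error. At the peaks, fraction 3 and fraction 7 differed by less than this error in Tekt1, Dynlrb2 and Tmem212. Fraction 7 was above fraction 3 by more than it in Foxj1 and Rsph1 (differences of -0.55 and -0.49, fraction 3 minus 7), and fraction 3 was above in Ccdc153 (0.36). The spot error is Feature Extraction's own figure, the same 0.144 on all 22 arrays for the bright Dynlrb1 probe, and not a spread measured between arrays. It covers 1 array only, and the spread between mice at a position was not measured.

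Change along each series was tested with limma in 1 fit of all 39621 probes, with slab position entered to the first and second power within each series and Benjamini-Hochberg adjustment over all probes. The residual spread around such curves stands in for replicate error. For the coronal series none of the 6 genes passed an adjusted p of 0.05, and 3 had an unadjusted p below 0.05, where 19.8% of all probes were called. The adjusted p-values by limma were 0.0612 for Tmem212, 0.0899 for Ccdc153, 0.121 for Rsph1, 0.266 for Dynlrb2, 0.317 for Foxj1 and 0.333 for Tekt1. Residual SDs of the 6 genes were 0.64 to 1.14, against a median of 0.38 over all probes. A course with 2 peaks is not one that a quadratic curve can follow, and with cubic and quartic coronal terms, added after the peaks were seen, again none of the 6 passed (adjusted p from 0.141 to 0.610 by limma). Tmem212 passed on leaving out coronal fraction 9 or 10 (0.0487 and 0.0473 by limma). The dimmer Rsph1 probe did pass the coronal test (adjusted p = 0.0386 by limma).

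In the horizontal series, fractions 1 and 2 were the lowest in all 6 genes. Fractions 3 to 5 were above each gene's mean over the 22 fractions, and fraction 6 lay between -0.39 from that mean, in Foxj1, and 0.89. From fraction 2 to fraction 3 the levels differed by 1.71 to 3.34, with a median of 2.82, where the median over all probes was -0.10. Fractions 1 to 3 all had a spike-in response out of range, and from fraction 3 to fraction 4 the levels differed by -0.12 to 0.32. Tmem212 alone passed the horizontal test, 1 of 6 against 6.57% of all probes (limma adjusted p = 0.0461, fitted end-to-end difference 4.22 ± 1.28 SE). The fit uses the Tmem212 reading in fraction 1, which was not well above background, so the size of that difference is approximate. All 6 had an unadjusted p below 0.05, between 0.0026 and 0.0126, and the other adjusted p-values were 0.0568 to 0.0809 by limma. The Tmem212 call was lost on leaving out any 1 of the horizontal or sagittal fractions or coronal fraction 5, 6 or 7 (adjusted p between 0.0534 and 0.244 by limma). Ccdc153 passed as well without coronal fraction 2, 3, 9 or 10 (0.0389 to 0.0483), and with slide as a block 3 of 6 genes passed, where 13.6% of all probes did. The Tmem212 call was also lost with only the arrays of in-range spike-in response, which leaves 3 horizontal fractions (adjusted p above 0.99), and with the level of a dim spike-in probe as a covariate (adjusted p = 0.183 by limma).

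In the sagittal series all 6 genes were highest in fraction 4. Fraction 4 was above fraction 3 by 0.62 to 1.74 and above fraction 5 by 0.98 to 1.87. None of the 6 genes passed the linear test, where 10.0% of probes were called, or the quadratic test, where 0.0303% were (limma, unadjusted p below 0.05 in 0 of 6 for either term). The linear share was 0% without sagittal fraction 1, whose spike-in response was out of range, 0.00252% without sagittal fraction 6 and 12.4% without coronal fraction 1. The quadratic share was 0% on leaving out any sagittal fraction except 4, coronal fraction 5 or 6, or the horizontal fractions 2 or 6 singly, and 0.994% without coronal fraction 1. The lowest adjusted p was 0.360, for the quadratic term of Foxj1 by limma. All sagittal fractions were on 1 slide, and fraction 3 but not fractions 4 and 5 had a spike-in response out of range.

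Ttr followed the same high and low stretches with exceptions. Its coronal levels were 0.17, 7.38, 7.90, 4.69, 4.81, 7.26, 7.62, 5.46, 3.37 and 4.54, its horizontal levels 3.26, 4.18, 7.24, 7.57, 7.21 and 5.22, and its sagittal levels 6.21, 6.56, 6.35, 7.08, 7.07 and 7.29. Like the cilia genes it was high in coronal fractions 3, 6 and 7 and in horizontal fractions 3 to 5. Unlike them it was already high in coronal fraction 2, where the step from fraction 1 was 7.20 in Ttr and 0.23 to 1.41 in the 6 genes. Both arrays of that step had an out-of-range spike-in response. Between horizontal fractions 5 and 6, Ttr fell by 2.00 while the 6 genes changed by -0.63 to 0.43, and Ttr had no sagittal peak, with -0.01 between fractions 4 and 5.

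**Figure D2:**
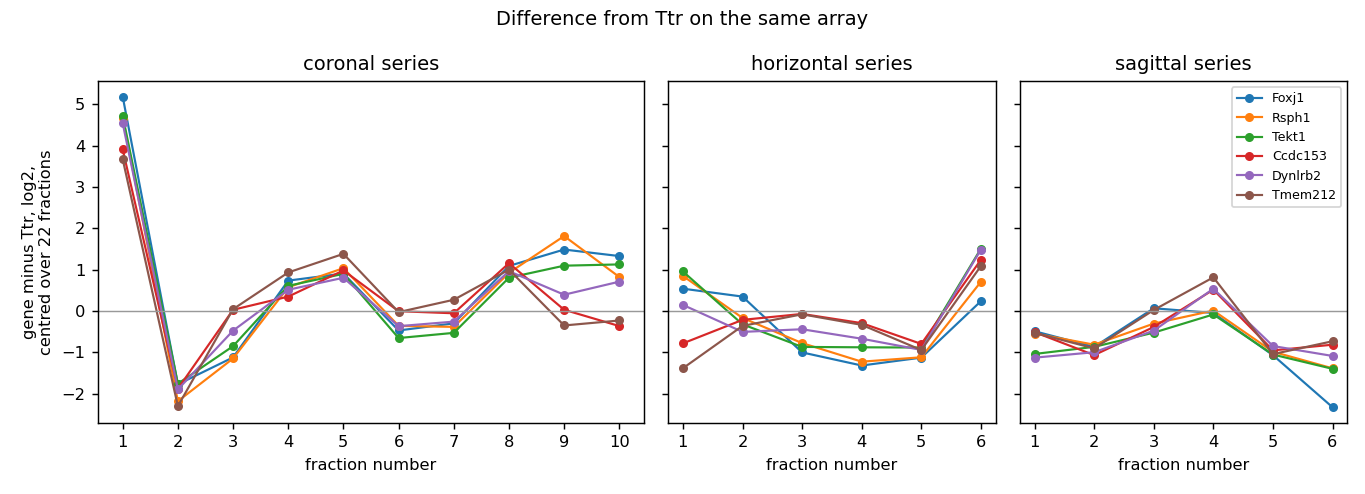
Log2 level of each motile cilia gene minus that of Ttr on the same array, centred on its mean over the 22 fractions (vertical axis), by fraction number (horizontal axis) in the coronal, horizontal and sagittal series. The median of the 6 genes was 4.61 in coronal fraction 1, -1.89 in coronal fraction 2 and 1.16 in horizontal fraction 6.

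Of the 20 choroid plexus genes tested, Ttr included, 18 were higher in coronal fraction 2 than in fraction 1 and 2, Slc13a4 and Col8a1, were lower. The step had a median of 1.88 and ran from -0.74 to 7.20, and in 13 genes it exceeded that of every cilia gene. Over all probes tested the same step had a median of 0.0017, with a 5th percentile of -1.14 and a 95th percentile of 1.68. Both arrays had an out-of-range spike-in response and they lay on different slides. The examples that follow were among the larger steps and were picked after their values were seen. Folr1, a folate receptor of that epithelium, read -1.13 in fraction 1, 2.54 in fraction 2 and 3.04 in fraction 3. Kcne2, a potassium channel subunit, was not well above background in fraction 1, where -5.38 is not an exact level, and read 0.84 and 1.01 in the next fractions. Clic6, an intracellular chloride channel protein, read -3.08, 1.12 and 1.38. Over the 20 genes, the median of gene-centred levels was -0.97 in fraction 1 and 1.00 in fraction 2, against -1.05 and -0.35 over the 6 cilia genes.

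The difference from Ttr on the same array, in which the scaling of the array cancels, was tested with the same model. None of the 6 genes passed in the coronal, horizontal or sagittal series (limma adjusted p from 0.300 to 0.816, 0.491 to 0.840 and 1.00, with an unadjusted p below 0.05 in 0 of 6 in each). By the same test 20.9%, 15.2% and 0.0101% of all probes were called. These shares moved with single arrays, the coronal one to 0.459% without coronal fraction 1 and 93.2% without coronal fraction 2, and the horizontal one to 3.20% without horizontal fraction 5 and 75.7% without coronal fraction 1. The fitted coronal end-to-end differences of the 6 genes from Ttr all had the same SE, 1.90, while their residual SDs were 1.25 to 1.43. The moderated test thus used a spread shared over probes and not each gene's own. A p above the threshold does not show that the courses were alike.

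Correlations describe the likeness of courses. Over the 22 fractions, the 15 pairs of the 6 genes had a median Pearson r of 0.92, from 0.85 for Foxj1 with Ccdc153 to 0.99 for Ccdc153 with Tmem212. Against Ttr the 6 genes had a median r of 0.73, from 0.61 to 0.80. Within series the medians among the genes were 0.95, 0.96 and 0.93 in the coronal, horizontal and sagittal fractions, and against Ttr 0.77, 0.92 and 0.59. The fractions of a series share 1 brain and neighbours are adjacent tissue, so these points are not independent and carry no p. Foxj1 stood somewhat apart in the sagittal series, where its r was 0.54 to 0.79 with the other genes and -0.11 with Ttr.

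**Figure D3:**
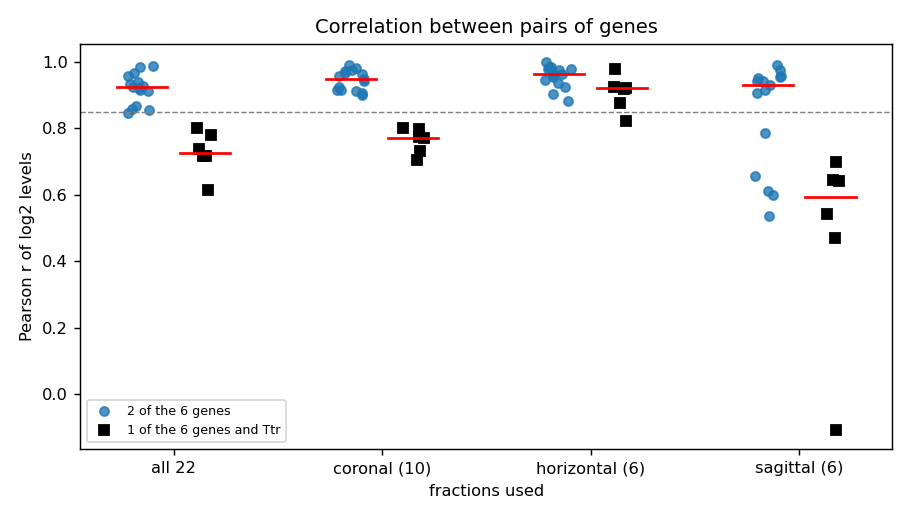
Pearson r of log2 levels (vertical axis) for pairs of the 6 motile cilia genes (circles) and for each of the 6 with Ttr (squares), over all 22 fractions and within each series (horizontal axis, number of fractions in brackets). Red bars are medians and the dashed line marks 0.85. Over all 22 fractions 14 of 15 gene pairs and none of the 6 pairs with Ttr lay above 0.85.

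At the threshold of r above 0.85, used here to count similarly expressed transcripts, Foxj1 had 17 partners among the probes tested, Rsph1 40, Tekt1 47, Tmem212 48, and Ccdc153 and Dynlrb2 56 each. Ttr had 10, and none of the 6 genes was among them. Of 16691 genes with a tested probe, 0.288% correlated above 0.85 with the mean standardised profile of the 6 genes, a share that includes the 6 themselves. The median r over all these genes was 0.12, and 5% lay above 0.58.

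The 10 other genes with the highest r to that profile were Fam166c (0.97), 1600029I14Rik (0.97), Dnali1 (0.96), Odf3b (0.96), Ccdc33 (0.96), Foxn4 (0.95), 1700012B09Rik (0.95), Ppp1r32 (0.94), Deup1 (0.94) and Cfap126 (0.93). Dnali1 is a light intermediate chain of axonemal dynein, Deup1 a scaffold of the deuterosomes from which many centrioles are made, and Foxn4 a transcription factor. Of these 10 genes, Dnali1 and Cfap126 were in the gene lists used here, as were 14 of the 40 most similar genes.

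**Figure D4:**
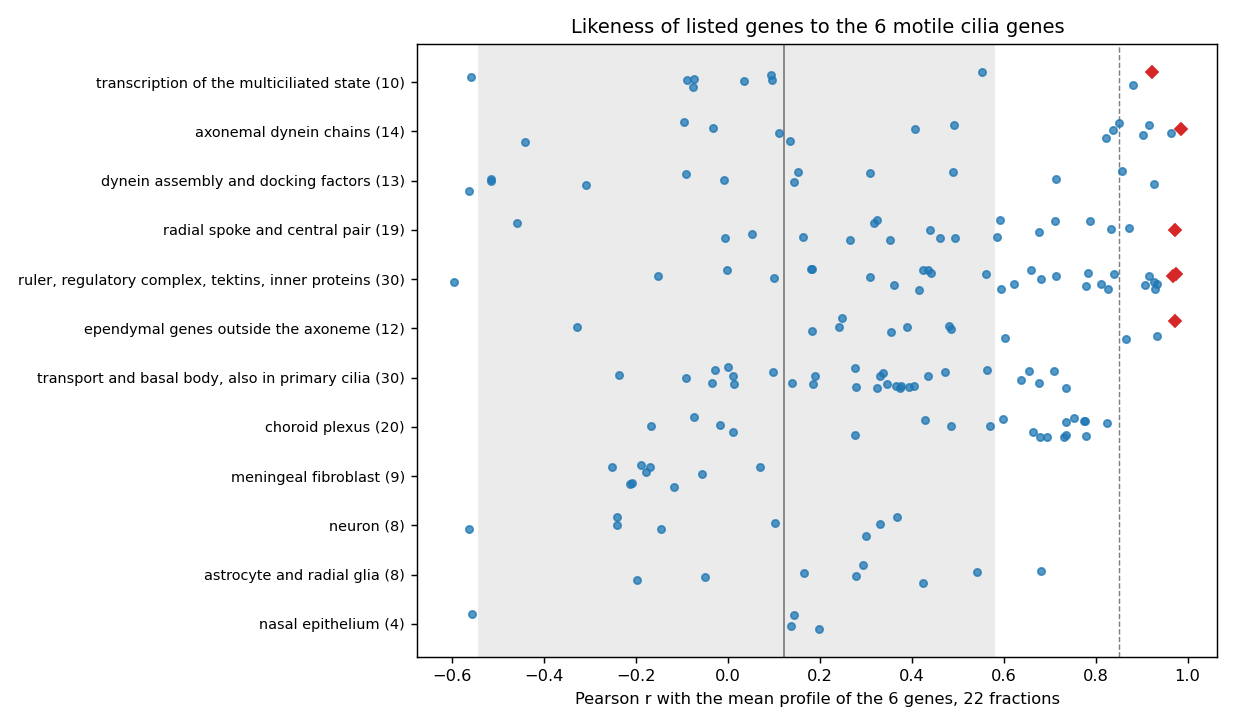
Pearson r over 22 fractions with the mean profile of the 6 motile cilia genes (horizontal axis) for each tested gene of 12 lists (vertical axis, number tested in brackets). Diamonds are the 6 genes themselves, the grey band runs from the 5th to the 95th percentile of all 16691 genes (-0.54 to 0.58), the solid line is their median and the dashed line is 0.85. The motile cilia and ependymal lists hold 15 further genes above 0.85, and the choroid plexus, meningeal, neuron, astrocyte, nasal and shared cilium lists hold none.

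Among 92 further genes of motile cilia and ependymal cells, 15 had an r above 0.85 and the median r was 0.43, so most listed ciliary genes did not share the full course. Of the axonemal dynein chains, Dnali1 (0.96), Dnaic2 (0.92), Dnah2 (0.90) and Dnah10 (0.85) were similar. Of the genes for doublet and inner proteins, Cfap126, Iqca, Cfap161, Spaca9 and Cfap45 were similar (0.91 to 0.93), as were the assembly factors Dnaaf3 (0.93) and Zmynd10 (0.86), the spoke protein Dnajb13 (0.87) and the cyclin-like Ccno (0.88). None of 30 tested genes for cilium transport and basal bodies, which primary cilia use too, passed 0.85, and their median r was 0.33.

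The coronal test was also read over the motile cilia lists, whose counts include members of the 6. Whether the other ciliary genes differed from the 6 was not tested. By limma 6 of 10 genes for transcription of the multiciliated state, 2 of 14 dynein chains, 2 of 13 assembly factors, 5 of 19 spoke and central pair genes and 10 of 30 doublet genes passed, beside 19.8% of all probes. Without coronal fraction 2 the counts were 3, 2, 1, 6 and 7, beside 12.8% of all probes, and with slide as a block 0, 1, 0, 2 and 3, beside 4.03%. Among them were Dnah5, an outer arm dynein heavy chain (fitted range 3.89, limma adjusted p = 8.2e-04), Drc1 of the dynein regulatory complex (2.98, 5.3e-04) and Spag6l of the central pair (2.01, 0.0032). Their r to the profile was 0.11, 0.18 and 0.46, whereas Zmynd10 (0.86), Ccdc113 (0.81), 1700013F07Rik (0.71) and Ak8 (0.71), which also passed, were closer to it. Dnah5, Drc1 and Spag6l were each lowest in coronal fraction 2 and highest in fraction 7. Dnah5 read -6.03 in fraction 2, below the lowest well-above-background reading of that array (-5.85), so its fitted range is approximate. The neuron markers Syt1 and Tubb3 were also lowest in fraction 2, the array that lay on a slide of its own with an out-of-range spike-in response. Without that array Dnah5, Drc1, Spag6l and Tubb3 passed (limma adjusted p of 0.0013, 6.1e-04, 0.0086 and 0.0094) and Syt1 did not (0.0605).

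The transcription list was mixed. E2f4 and Rfx3 were higher toward fraction 10 (fitted end-to-end differences of 1.93 and 1.66), and Myb, a regulator of centriole amplification, was higher toward fraction 1 (-3.01). Gmnc, another regulator of that step, passed as well but was well above background on 4 of 22 arrays, so no difference is given for it. Without coronal fraction 2, where E2f4 and Rfx3 were lowest, Rfx3 and Myb no longer passed (limma adjusted p of 0.0535 and 0.107). Zmynd10 and Ccdc103 passed with coronal ranges of 1.99 and 1.37. Nme5, Ak8 and Rsph9 of the spoke and central pair list passed with ranges of 1.59, 1.57 and 1.16, and Cfap206, Ccdc113 and 1700013F07Rik of the doublet list with 2.06, 2.05 and 1.92. Nme5, Ak8 and Rsph9 were lowest in fraction 2, as was Dnal1, which passed with a range of 3.39. Dnal1 read -4.63 in fraction 2 and was well above background on 21 of 22 arrays. Zmynd10 no longer passed without that array (limma adjusted p = 0.0502). Kif3b, Bbs1, Kifap3 and Kif3a, transport genes shared with primary cilia, passed with ranges of 1.33 to 1.54 and were likewise lowest in fraction 2. Of the 30 genes of their list, 8 were called beside 19.8% of all probes, 8 without coronal fraction 2 beside 12.8%, and 3 with slide as a block beside 4.03%.

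In the horizontal test 7 of 12 ependymal genes outside the axoneme were called, 6 higher and 1 lower toward fraction 6, where 6.57% of all probes were called. Without horizontal fraction 1 none of these 12 genes was called and 0.0227% of all probes were, and without horizontal fraction 5 the values were 3 genes and 0.999%. With only the arrays of in-range spike-in response, and with the spike-in covariate, none of the 12 was called (0.0328% and 0.255% of all probes). Besides Tmem212 they were S100b (end-to-end difference 2.43), Acta2 (2.78), Aqp4 (2.23), Sox9 (1.44), Pltp (1.41) and, lower, Cd24a (-1.78). Several of these are not particular to ependymal cells, since S100b, Aqp4 and Sox9 are also genes of astrocytes. Of 9 meningeal fibroblast markers, 3 were called in the same test, all higher toward fraction 6, where the median gene-centred level of the list was 2.01, and their part in these results was not tested. Of the motile cilia lists, 2 of 14 dynein chains, 2 of 30 doublet genes, 1 of 10 transcription genes, 0 of 13 assembly factors and 0 of 19 spoke and central pair genes were called, all higher toward fraction 6, a share near that of all probes. They included Dnali1 and Dnaic2 of the dynein chains (4.41 and 3.31), Cfap45 of the doublet list (2.57) and Rfx1 (1.41). None of these genes, meningeal ones included, was called without horizontal fraction 1.

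The name of the group was set against markers of other cells. Tmem212 is itself part of the profile. Of the other 11 ependymal genes outside the axoneme, only Hdc (r = 0.93) and Sox9 (0.87) correlated above 0.85 with it. Below it were Rarres2 (0.60), Aqp4 (0.48), Mia (0.48), Pltp (0.39) and S100b (0.35). Lower still were Acta2 (0.25), Ccdc13 (0.24), Vim (0.18) and Cd24a (-0.33). S100b, Aqp4 and Mia passed the coronal test with higher levels toward fraction 1 (end-to-end differences of -2.94, -1.85 and -3.81) and Cd24a with higher levels toward fraction 10 (1.22). With slide as a block 1 of the 12 genes of this list was called in the coronal test instead of 4, beside 4.03% of all probes. The choroid plexus list had a median r of 0.67, with Clic6 (0.82) the highest, Folr1 at 0.78 and Kl at 0.77. Otx2, Sostdc1 and Kl, 3 of its 20 genes, passed the coronal test with ranges of 4.64, 2.73 and 2.47, beside 19.8% of all probes. These bulk values do not tell in which cells the 6 genes were expressed.

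Markers of other tissues were set against the profile in the same way, and their coronal counts stand beside 19.8% of all probes. The 9 meningeal fibroblast genes had a median r of -0.18 with the profile, and none was called in the coronal series, where the ranges of Ogn and Col1a1 were 1.14 and 0.95. In the horizontal series 3 of the 9 were called, all higher toward fraction 6. The 8 neuron genes had a median r of -0.02 and 7 were called, Nefm, Syt1, Nefl and Tubb3 with ranges of 2.29, 1.93, 1.67 and 1.55. The 8 astrocyte and radial glia genes had a median r of 0.29 and 3 were called, Gfap, Fabp7 and Aldoc with ranges of 2.03, 1.21 and 1.05. With slide as a block 2 of the neuron genes, 1 of the astrocyte genes and none of the choroid plexus genes were called, beside 4.03% of all probes. Within the horizontal series, r of the 8 astrocyte genes with the profile ran from -0.54 in Fabp7 to 0.91 in Slc1a3, with Aldh1l1 at 0.85, Slc1a2 at 0.83, Aldoc at 0.70, Gfap at 0.64, Gja1 at 0.28 and Hes5 near 0. Of 7 genes of nasal epithelium, which also bears motile cilia, Bpifa1, Scgb1c1 and Obp2a did not pass the detection filter and the other 4 had a median r of 0.14. Of these 4, 2 were called, Omp and Sec14l3, both lowest in coronal fraction 2. With slide as a block 1 of the 4 was called, beside 4.03% of all probes. Omp, a gene of olfactory sensory neurons, was highest in coronal fraction 10, and Sec14l3 in fraction 5.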

How the data were processed

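Total RNA of 22 brain fractions was measured on Agilent SurePrint G3 mouse arrays in 1 colour. Per the file headers, the authors read the spots with Agilent Feature Extraction 10.10.1.1, which gives a background-subtracted processed intensity per spot. A deposited table gives values on the log2 scale, which equalled log2 intensity minus the array's 75th percentile within 0.02 in 100% of values over 47478 matched rows.

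Control and outlier spots were left out and spots of a probe were averaged. Log2 intensity minus the array's 75th percentile was analysed for 55600 probes (26553 of them RefSeq-identified with a symbol). Per gene the RefSeq-identified probe with the highest median over 22 arrays was used. The 39621 probes well above background in at least 1 fraction of each series were tested with limma 3.58.1 in R 4.3.3, with a linear and a quadratic slab term per series, 1 intercept per series and the Benjamini-Hochberg adjustment (0.05). Summaries used Python 3.11.15, pandas 2.3.3 and matplotlib 3.10.9. On simulated data with 200 of 39621 probes changed, the coronal test recovered 95.5% of them, the horizontal test 78% and the sagittal linear and quadratic tests 85% and 99.5%. No column was left unused. The number of arrays limits the precision, and each p measures the spread around a fitted curve, not between mice.

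The genes, lists and tests were chosen with earlier results of these data known. Genes named are the 6 cilia genes, Ttr, Dynlrb1, up to 4 genes per list that passed the coronal test with the largest range (the 2 with the largest range where fewer than 2 passed) and the 10 most similar genes. Other genes named, such as those past r = 0.85 or the horizontal test, Hoxb5, Folr1 and Kcne2, were chosen after their values were seen. Alternatives changed the scaling, the background correction (normexp with offset 50 on median signals, since the files gave no mean signals), the filter, the curve, the spike-in covariate, the slide as a block, the probe and each fraction in turn. Among the called list genes, 1 is not reported here by name.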

Additional observations from a re-analysis of the deposited data

Results flagged for a closer look

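Of 18 groups of fractions (6 genes in 3 series) examined for a lone extreme fraction, 1 stood out. The Rsph1 level of 1.02 in sagittal fraction 4 was the highest of its series, and its gap to the next fraction was 0.708 of the whole range. About 1 in 20 such groups is expected to stand out by chance. The fractions are positions along a brain and not replicates, and all 6 genes had their sagittal maximum in that fraction.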

How the results depend on the processing

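The counts of called genes were recomputed under each alternative. For the coronal test the count was 0 of 6, with 3 genes at an unadjusted p below 0.05, and became 2 with no scaling (12.9% of all probes called, against 19.8%), 1 with the dimmer Rsph1 probe, and 0 to 1 on leaving out each fraction (1 without coronal fraction 9 or 10). For the horizontal test the count of 1 (6.57% of all probes) became 4 with no scaling (5.81%), 3 with quantile normalization (8.14%), with slide as a block (13.6%) and, of the 5 genes then tested, with only probes detected on all arrays (16.1%), and 2 with robust and trended moderation (9.08%). It became 0 with normexp (5.25%), with the spike-in covariate (0.255%), with in-range arrays (0.0328%), with the linear term (0.520%), with the horizontal series alone (0%) and with no filter (2.67%), and 0 to 2 on leaving out each fraction. The sagittal tests and all tests of the difference from Ttr stayed at 0 of 6 under every alternative run. The cause of these shifts was not tested. The median r with Ttr was 0.920 within the horizontal and 0.592 within the sagittal series, 0.793 over in-range arrays and 0.695 to 0.795 on leaving out each fraction, highest without coronal fraction 1. The median r among the genes was 0.860 with the dimmer Rsph1 probe. No paired analysis was possible because fractions with the same number in different series come from different mice and planes and share only a number. With 1 array per position, the residual spread of 0.64 to 1.14 limits what these tests can call, and the 6 horizontal adjusted p-values lay between 0.0461 and 0.0809 by limma.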
